A study of Mus musculus with 12 samples.

Results

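The alpha-arrestin genes Arrdc1, Arrdc2, Arrdc3 and Arrdc4 and their relative Txnip were followed in mouse liver. They were the probe sets whose only annotated symbol was one of these names. Each of the 5 genes had 1 probe set, so choosing the brightest probe set per gene, by its average over the 12 arrays, decided nothing among them. They are 5 of the 19937 genes with such probe sets, and all 5 passed the filter on low values that left 17904 genes. The family was selected on earlier results of these arrays, the dexamethasone changes, in which Arrdc3 had the steepest decrease. The dexamethasone values of Arrdc3 are therefore given as a description, with no p-value. The dexamethasone p-values of the other members come from the same arrays and are not independent of that selection.

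RNA came from the livers of 12 male C57Bl/6 mice, 1 Affymetrix array per animal and 3 animals in each of 4 groups. The groups were Hdac6 knockout mice (genotype HDAC6 Y/-) given dexamethasone, Hdac6 knockout mice given vehicle, wild-type mice given dexamethasone and wild-type mice given vehicle. Dexamethasone, a synthetic glucocorticoid, was injected intraperitoneally at 1 mg/kg over 3 weeks, and all animals were fed freely. Hdac6 is an X-linked gene for a mainly cytoplasmic deacetylase, so males carry 1 copy. The labels name neither the knockout construct nor the age of the animals or the interval between the last injection and tissue collection. The comparisons address how dexamethasone alters liver RNA and whether Hdac6 is needed for that. All levels are log2 intensities as deposited, where 1 unit is 2-fold. Adjusted p-values under 0.05 were called.

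Alpha-arrestins are adaptor proteins with an arrestin fold. Most carry PPxY motifs that recruit ubiquitin ligases of the NEDD4 type to membrane receptors and transporters, which marks these cargo proteins for internalisation. Txnip, thioredoxin-interacting protein, also binds thioredoxin, and together with Arrdc4 it restrains glucose uptake. Both are known targets of the glucose-sensing transcription factors MondoA and ChREBP, which act with their partner Mlx. In mice Arrdc3 has been tied to body fat, and Arrdc1 to the budding of vesicles from the plasma membrane. In liver, Txnip is known for its link between nutrient state and glucose output.

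The promoters of the 4 members that moved most or whose regulation by glucose is known are printed here, since their transcripts went in opposite directions under the same drug. Each stretch is the 250 bases before the annotated start site, 5′ to 3′, from RefSeq (GRCm38.p6), and capitals mark matches to 5 motifs searched on both strands. The motifs were the E-box CACGTG, the carbohydrate response element (CACGNG, any 5 bases, CACGNG), the CCAAT box CCAAT, the FoxO motif GTAAACA and the glucocorticoid response element (GNACA, any 3 bases, TGTNC).
Arrdc2, chr8:70839721-70839970, minus strand: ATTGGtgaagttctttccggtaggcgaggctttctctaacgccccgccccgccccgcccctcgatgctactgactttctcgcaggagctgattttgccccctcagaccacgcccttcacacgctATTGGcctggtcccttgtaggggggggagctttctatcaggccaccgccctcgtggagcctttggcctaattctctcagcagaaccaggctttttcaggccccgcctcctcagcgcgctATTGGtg
Arrdc3, chr13:80883134-80883383, plus strand: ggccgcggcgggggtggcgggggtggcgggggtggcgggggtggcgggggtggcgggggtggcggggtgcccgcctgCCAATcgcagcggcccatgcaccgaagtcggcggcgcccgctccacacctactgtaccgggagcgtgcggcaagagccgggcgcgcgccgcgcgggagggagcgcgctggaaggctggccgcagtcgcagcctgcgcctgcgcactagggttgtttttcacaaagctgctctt
Arrdc4, chr7:68749239-68749488, minus strand: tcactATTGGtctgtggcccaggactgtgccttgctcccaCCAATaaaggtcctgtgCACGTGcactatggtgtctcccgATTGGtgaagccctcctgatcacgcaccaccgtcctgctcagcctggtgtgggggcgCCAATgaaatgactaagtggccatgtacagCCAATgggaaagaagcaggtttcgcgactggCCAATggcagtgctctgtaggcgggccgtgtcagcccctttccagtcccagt
Txnip, chr3:96557707-96557956, plus strand: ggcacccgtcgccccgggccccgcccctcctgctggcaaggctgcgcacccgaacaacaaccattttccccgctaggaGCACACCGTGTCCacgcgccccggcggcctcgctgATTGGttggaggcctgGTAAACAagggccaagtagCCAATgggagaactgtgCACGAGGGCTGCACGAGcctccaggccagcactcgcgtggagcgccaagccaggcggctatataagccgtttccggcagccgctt

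The Txnip stretch held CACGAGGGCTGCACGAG, a match to the carbohydrate response element, from -85 to -69 relative to the start site. That motif was found in 0.0487% of the 32851 promoter windows of the same table, which run from 250 bases before to 50 after a start site. Txnip also had a match to the glucocorticoid response element (-172 to -160), present in 0.475% of windows, a FoxO match (-121 to -115), present in 3.65%, and 2 CCAAT boxes. Arrdc4 had 1 E-box (-193 to -188), present in 7.15% of windows, and 6 CCAAT boxes. Arrdc2 had 3 CCAAT boxes and Arrdc3 had 1, a motif found in 37.4% of windows. The motifs did not overlap each other in these 4 stretches. The letters of the glucocorticoid response element were not in the Arrdc2, Arrdc3 or Arrdc4 windows. The table has 3 windows for Arrdc3, and the one that begins at the gene's annotated start is shown. These are matches of letters in a short window, and no binding was measured.

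The arrays matched their labels. Hdac6 averaged 4.12 ± 0.26 in knockout vehicle livers and 6.20 ± 0.20 in wild-type vehicle livers (SD, n = 3 each), and its highest knockout array lay below its lowest wild-type array. Fkbp5, a chaperone partner of the receptor and a known glucocorticoid target, averaged 10.49 ± 0.16 in knockout dexamethasone livers against 5.78 ± 0.35 in knockout vehicle livers, and 10.58 ± 0.13 against 5.57 ± 0.52 in wild type. The means of 8 hepatocyte markers ran from 12.21 to 12.38 over all arrays. Arrays carrying pancreas transcripts were those whose mean over 9 exocrine pancreas markers lay over 2 log2 units above the lowest array. That rule picked 4 arrays, so higher marker levels in them follow largely from it. All 9 markers were higher on average in these than in the other 8, for example Cpa1 at 10.75 against 3.23. These 4 were wild-type dexamethasone 3, knockout vehicle 3 and wild-type vehicle 1 and 2, so member values are also given without them. Only 1 wild-type vehicle liver then remains, and it is taken to vary like the other groups. Far fewer of all genes passed the threshold in that fit, in wild type and in the averaged dexamethasone effect. A call lost there is therefore not particular to the gene or list named.

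**Figure D1:**
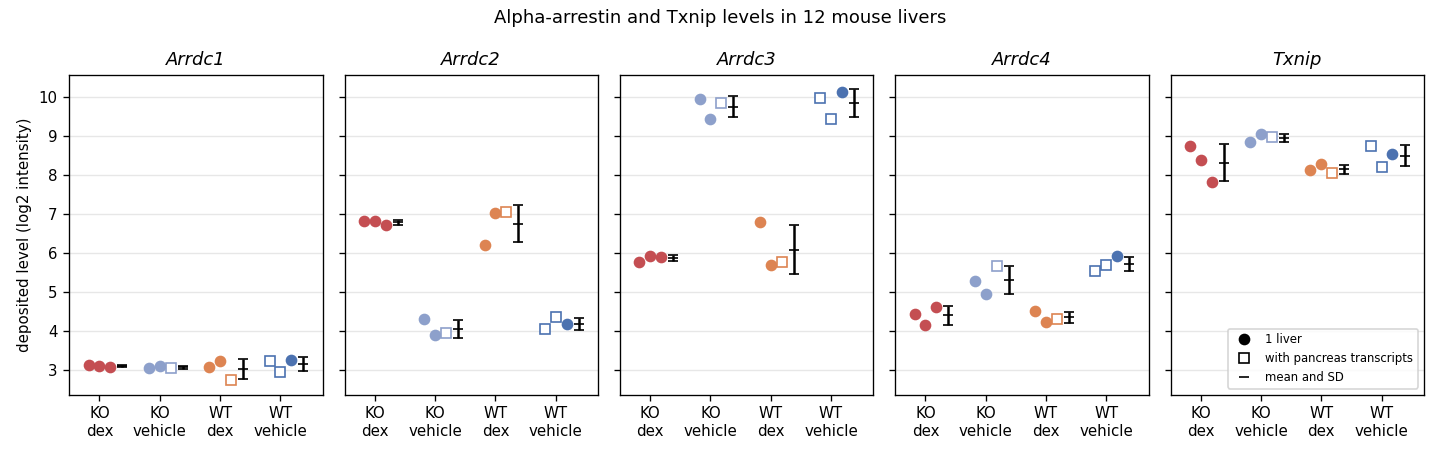
Deposited log2 intensity of each member in all 12 livers. Groups on the horizontal axis are Hdac6 knockout (KO) and wild type (WT) with dexamethasone (dex) or vehicle; each point is 1 liver, open squares are the 4 livers with pancreas transcripts, and bars give mean and SD. Arrdc2 sits higher and Arrdc3 and Arrdc4 lower in every dexamethasone liver than in every vehicle liver, while Arrdc1 stays between 2.73 and 3.25.

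Arrdc3 was the member with the widest range. Its level was 5.76, 5.92 and 5.89 in the 3 knockout dexamethasone livers, against 9.95, 9.44 and 9.84 in the knockout vehicle livers. In wild type it was 6.79, 5.68 and 5.76 with dexamethasone, against 9.95, 9.42 and 10.11 with vehicle. Every dexamethasone liver lay below every vehicle liver, with a gap of 2.63 between the highest of one set and the lowest of the other. The log2 change was -3.88 ± 0.26 (SE) in the knockout, 14.8-fold lower, and -3.75 ± 0.26 in wild type, 13.5-fold lower. In both genotypes this was the largest decrease of the 17904 genes, the property for which the gene was known. Without the 4 arrays with pancreas transcripts the changes were -3.83 in the knockout and -3.87 in wild type. The group means ordered as wild-type vehicle 9.83 ± 0.36 (SD), knockout vehicle 9.74 ± 0.27, wild-type dexamethasone 6.08 ± 0.62 and knockout dexamethasone 5.86 ± 0.08 (n = 3 each). Within each treatment the genotypes overlapped.

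Arrdc2 went the other way. Its level was 6.82, 6.80 and 6.70 in knockout dexamethasone livers, against 4.30, 3.90 and 3.93 in knockout vehicle livers. In wild type it was 6.19, 7.01 and 7.03 with dexamethasone, against 4.03, 4.34 and 4.17 with vehicle. The dexamethasone and vehicle livers did not overlap in either genotype. Arrdc2 rose 6.64-fold in the knockout (log2 change 2.73 ± 0.19 SE, limma adjusted p = 1.31e-06) and 5.90-fold in wild type (2.56 ± 0.19, adjusted p = 2.51e-06). Those were the 34th and 38th largest increases of the 17904 genes in the knockout and in wild type. Without those 4 arrays the changes were 2.67 in the knockout (adjusted p = 1.73e-04) and 2.43 in wild type (adjusted p = 3.37e-03).

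Arrdc4, which restrains glucose uptake, fell with dexamethasone in both genotypes. It was at 4.42, 4.15 and 4.62 in knockout dexamethasone livers, against 5.28, 4.94 and 5.66 in knockout vehicle livers. Wild-type livers had 4.50, 4.23 and 4.29 with dexamethasone, against 5.54, 5.69 and 5.91 with vehicle. The groups did not overlap in either genotype, and the gap was narrower in the knockout, where the highest treated liver lay 0.32 below the lowest vehicle liver. The decrease was 1.86-fold in the knockout (-0.90 ± 0.17 SE, limma adjusted p = 4.64e-03) and 2.59-fold in wild type (-1.37 ± 0.17, adjusted p = 1.87e-04). Omitting the pancreas-bearing arrays, the change was -0.72 in the knockout (adjusted p = 0.0369) and -1.54 in wild type (adjusted p = 8.00e-03).

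Txnip moved less. Knockout livers had 8.74, 8.38 and 7.81 with dexamethasone, against 8.83, 9.04 and 8.96 with vehicle. Wild-type livers had 8.12, 8.27 and 8.04 with dexamethasone, against 8.74, 8.20 and 8.53 with vehicle. The knockout groups did not overlap, but the treated livers spread over 0.93, and the wild-type groups did overlap. Neither comparison passed the threshold, with log2 changes of -0.64 ± 0.19 (SE, limma adjusted p = 0.0640) in the knockout and -0.35 ± 0.19 (adjusted p = 0.312) in wild type. Averaged over both genotypes, Txnip fell 1.41-fold (-0.49 ± 0.14, adjusted p = 0.0232). That call was lost without the arrays with pancreas transcripts (-0.48, adjusted p = 0.170). It was also lost without wild-type vehicle 1 (-0.43), wild-type dexamethasone 3 (-0.47) or knockout vehicle 2 (-0.47). Without knockout dexamethasone 1, the highest liver of its group, the knockout change was -0.85 and passed (limma adjusted p = 0.0104), and without knockout dexamethasone 3, the lowest, it was -0.39 (adjusted p = 0.224).

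Arrdc1 showed no change that could be told from its spread. It averaged 3.08 ± 0.03 in knockout dexamethasone livers, 3.06 ± 0.03 in knockout vehicle livers, 3.01 ± 0.25 in wild-type dexamethasone livers and 3.14 ± 0.17 in wild-type vehicle livers (SD, n = 3 each). The array medians ran from 3.13 to 3.24 and the 20th percentiles from 2.17 to 2.23. The 95% interval of its change was -0.24 to 0.29 in the knockout and -0.39 to 0.14 in wild type. Arrdc5, the remaining alpha-arrestin, was lower still, from 2.36 to 2.91 over the 12 livers, with log2 changes of 0.05 ± 0.14 (SE) in the knockout and -0.11 ± 0.14 in wild type.

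**Figure D2:**
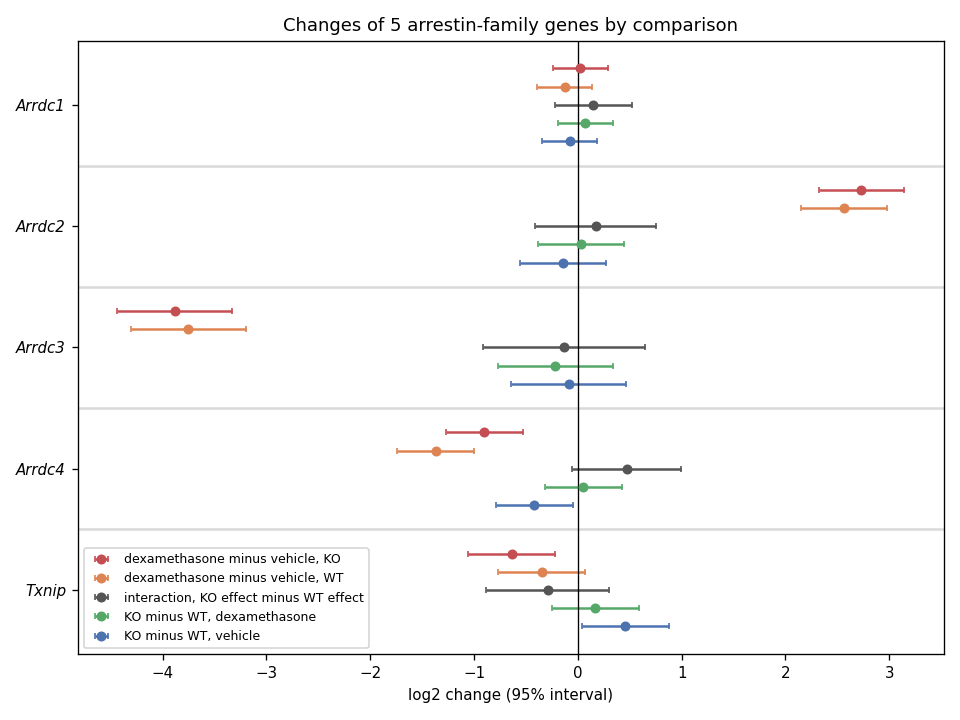
Log2 change of each member with its 95% interval from the limma fit, in 5 comparisons. Dexamethasone minus vehicle is shown for Hdac6 knockout (KO) and wild type (WT), followed by the difference of these effects and by knockout minus wild type under each treatment. The dexamethasone intervals of Arrdc2 lie above 0 and those of Arrdc4 below it, Arrdc3 is shown as a description, and every interaction interval includes 0.

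Of the 4 members other than Arrdc3, 1 was higher and 1 lower past the threshold in each genotype. In the knockout 8.29% of all genes were called, 4.38% higher and 3.92% lower, and in wild type 11.5%, 4.57% higher and 6.95% lower. In the averaged dexamethasone effect 1 of the 4 was higher and 2 were lower, where 17.2% of all genes were called, 7.29% higher and 9.94% lower. The median log2 change of these 4 was -0.31 in the knockout and -0.24 in wild type, beside -0.01 over all genes tested in the knockout and 0.01 in wild type. Since members moved in both directions, that median describes none of them. Treated and vehicle livers were fully separated in 3 of these 4 members in the knockout and in 2 of 4 in wild type, as they were for 24.3% and 27% of all genes. The spread within groups was larger than usual for these genes. The residual SD was 0.39 for Arrdc3, 0.28 for Arrdc2 and Txnip and 0.24 for Arrdc4, against a median of 0.143 over all genes, and 0.16 for Arrdc1.

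**Figure D3:**
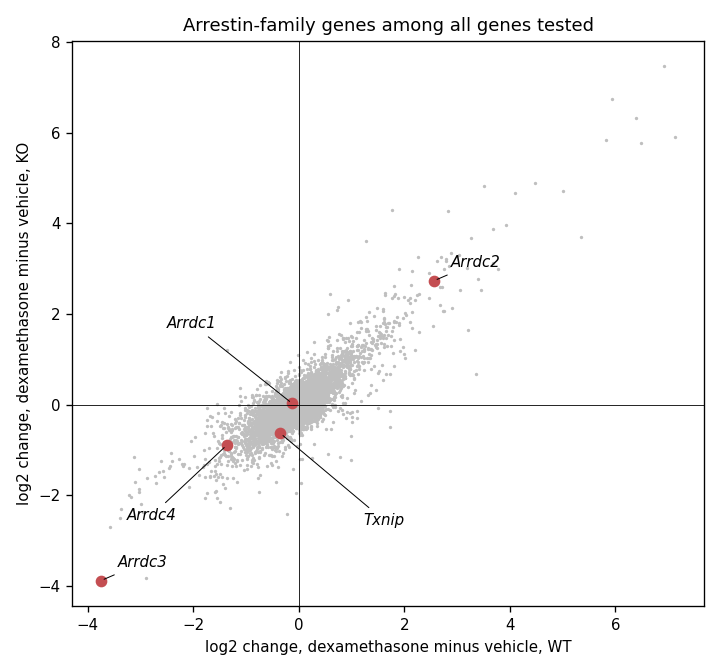
Log2 change under dexamethasone in wild type (horizontal axis) and in the Hdac6 knockout (vertical axis) for all 17904 genes tested (grey), with the 5 members in red. Arrdc3 lies at the lower left end, Arrdc2 in the upper right tail, Arrdc4 and Txnip below 0 on both axes and Arrdc1 near the origin.

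Wild-type dexamethasone 1 showed smaller changes in several members. In that liver the change from the vehicle mean was 78.3% of its group's mean change for Arrdc2, 80.9% for Arrdc3 and 88.4% for Arrdc4. The other wild-type dexamethasone livers were at 110% and 111% for Arrdc2 and at 111% and 109% for Arrdc3. The group mean includes all its livers, so a low share in one raises the shares of the others. Over the 377 genes called at least 2-fold in the averaged effect, the median share in wild-type dexamethasone 1 was 98.8%. It was lowest in knockout dexamethasone 1, at 94.0%. Txnip in wild-type dexamethasone 1 was at 107% of its group's change. Low shares also occurred elsewhere, such as 75.2% for Arrdc4 in knockout dexamethasone 3 and 33.0% for Txnip in knockout dexamethasone 1. Without wild-type dexamethasone 1, the wild-type changes were 2.84 for Arrdc2 and -4.11 for Arrdc3.

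Loss of Hdac6 changed none of the 5 members past the threshold in limma, under either treatment. Under vehicle, 2 of 5 had an unadjusted p under 0.05, where 18 of 17904 genes (0.101%) passed the adjusted threshold and 1288 had such an unadjusted p. Txnip was at 8.95 ± 0.11 in knockout vehicle livers and 8.49 ± 0.27 in wild-type vehicle livers (SD, n = 3 each), a log2 change of 0.46 ± 0.19 (SE, adjusted p = 0.666). Every knockout liver lay above every wild-type liver, as for 11.8% of all genes. Arrdc4 was at 5.29 ± 0.36 in knockout vehicle livers and 5.71 ± 0.18 in wild-type vehicle livers, with overlap (-0.42 ± 0.17 SE, adjusted p = 0.646). Without the arrays with pancreas transcripts, Arrdc4 stood at -0.80 (adjusted p = 0.744) and Txnip at 0.41 (adjusted p = 0.967). Under dexamethasone 0 of 5 had an unadjusted p under 0.05, which 1566 of all genes had, and all 5 members overlapped between genotypes, where 0.0279% of all genes passed and 14% did not overlap. The changes there ran from -0.22 ± 0.26 (SE) for Arrdc3 to 0.17 ± 0.19 for Txnip. In the knockout effect averaged over treatments 0 of 5 passed and 1, Txnip, had an unadjusted p under 0.05 (0.31 ± 0.14 SE, adjusted p = 0.477), where 0.0503% of all genes passed and 1798 had such an unadjusted p.

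Whether the response depends on Hdac6 was tested as the interaction, the dexamethasone change in the knockout minus that in wild type. None of the 5 members passed in limma, 0 had an unadjusted p under 0.05, and of all genes 0% passed (1109 at an unadjusted p under 0.05). The interaction was 0.17 for Arrdc2, with a 95% interval of -0.41 to 0.76, and -0.13 for Arrdc3, with an interval of -0.92 to 0.65. These bounds are narrow beside the dexamethasone changes of both genes. For Arrdc4 it was 0.47 (interval -0.05 to 1.00, adjusted p = 0.820), which is large beside its own effects, and 0.83 without the arrays with pancreas transcripts (adjusted p = 0.898). With single arrays left out it ran from 0.29 (without knockout vehicle 2) to 0.65. Txnip had -0.29 (interval -0.88 to 0.30), which was -0.14 without wild-type vehicle 2, -0.04 without knockout dexamethasone 3 and -0.50 without knockout dexamethasone 1. Arrdc1 had 0.15 (interval -0.22 to 0.52). With 3 animals a group the data do not settle whether Arrdc4 or Txnip respond alike in both genotypes.

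In whole liver, fewer cells of a type and less RNA per cell cannot be told apart. Macrophage markers moved beside the members in wild type. Of 12 Kupffer cell markers 10 were lower and 0 higher in wild-type dexamethasone livers, with array means of 5.68 to 6.17, against 6.70 to 7.59 with vehicle. In the knockout 0 of 12 were called, and the array means were 6.36 to 7.24 with dexamethasone and 6.53 to 6.91 with vehicle. The marker means of treated and vehicle livers thus overlapped in the knockout. Of 10 endothelial markers 5 were lower and 1 higher in wild type and 4 lower and 1 higher in the knockout. Of 9 stellate cell markers 2 were lower in wild type and 1 in the knockout, and of 8 lymphocyte markers 3 were lower in wild type and 0 in the knockout. None of the neutrophil, cholangiocyte and erythroid markers measured (5, 5 and 3 genes) was called in either genotype. Beside these counts, 8.29% of all genes were called in the knockout and 11.5% in wild type. The part of these cells in the members' changes was not tested.

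Transcripts of ChREBP and MondoA, known regulators of Txnip and Arrdc4, changed in opposite directions. The activity of these factors was not measured, and a link to the members' changes was not tested. Mlxipl, which encodes ChREBP, was at 7.40, 7.49 and 7.51 in knockout dexamethasone livers, against 8.57, 8.56 and 8.13 in knockout vehicle livers. In wild type it was 7.33, 7.72 and 7.33 with dexamethasone, against 8.07, 8.19 and 8.21 with vehicle. It fell by 0.95 ± 0.13 (SE, limma adjusted p = 4.52e-04) in the knockout and by 0.70 ± 0.13 (adjusted p = 3.97e-03) in wild type. Mlxip, which encodes MondoA, rose by 0.83 ± 0.11 in the knockout (limma adjusted p = 3.99e-04) and by 0.67 ± 0.11 in wild type (adjusted p = 1.92e-03). Mlx, the shared partner, stood at 0.22 ± 0.11 in the knockout and 0.21 ± 0.11 in wild type and did not pass. Without the arrays with pancreas transcripts both calls held in the knockout (Mlxipl -1.10, Mlxip 0.87) and were lost in wild type (Mlxipl -0.69, adjusted p = 0.0711, and Mlxip 0.56, adjusted p = 0.147).

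Known ChREBP targets did not move together. Of 13 measured, 2 were higher and 1 lower in the knockout, and 2 higher and 3 lower in wild type. Over all genes, 8.29% were called in the knockout and 11.5% in wild type. Thrsp, a lipogenic regulator, rose by 2.99 ± 0.39 (SE) in the knockout and by 1.90 ± 0.39 in wild type. Elovl6, a fatty acid elongase, rose by 0.54 ± 0.14 in the knockout and by 0.51 ± 0.14 in wild type. The transcription factor Klf10 fell by 1.37 ± 0.30 in the knockout and stood at -0.78 ± 0.30 in wild type, without a call. Fatty acid synthase, Fasn, stood at -0.40 ± 0.23 in the knockout and fell by 1.13 ± 0.23 in wild type. Without the arrays with pancreas transcripts Thrsp (3.28) and Klf10 (-1.29) kept their calls in the knockout, and no wild-type call held. Among those that lost their call, Thrsp in wild type was at 2.32 (limma adjusted p = 0.0806), Fasn in wild type at -0.83, and Elovl6 at 0.48 in the knockout and 0.54 in wild type.

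Of 11 genes for NEDD4-type ubiquitin ligases and their adaptors, 2 were higher and 1 was lower in each genotype, where 8.29% of all genes were called in the knockout and 11.5% in wild type. Hecw2 rose by 0.51 ± 0.11 (SE) in the knockout and by 0.40 ± 0.11 in wild type, and Smurf1 fell by 0.48 ± 0.12 in the knockout and by 0.81 ± 0.12 in wild type. Itch rose by 0.43 ± 0.11 in the knockout and stood at 0.34 ± 0.11 in wild type, while Nedd4l stood at 0.47 ± 0.19 in the knockout and rose by 1.00 ± 0.19 in wild type. In the arrays without pancreas transcripts Itch kept its call in the knockout (0.50), and no wild-type call held. The values that lost their call there were 0.52 for Hecw2 and -0.44 for Smurf1 in the knockout, and 0.46 for Hecw2, 0.90 for Nedd4l and -0.54 for Smurf1 in wild type. None of 10 ESCRT genes, the machinery that Arrdc1 uses for vesicle budding, was called in either genotype (limma, averaged effect included). Tsg101, the ESCRT subunit that binds Arrdc1, stood at 0.08 ± 0.10 in the knockout and 0.21 ± 0.10 in wild type.

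Among 8 measured cargo genes, 1 was higher in the knockout and 2 in wild type. The share of all genes called higher was 4.38% in the knockout and 4.57% in wild type. Slc2a1, the glucose transporter GLUT1 that Txnip and Arrdc4 bring into the cell, had 6.33, 6.68 and 6.20 in knockout dexamethasone livers, against 5.84, 5.12 and 5.69 with vehicle. It rose by 0.85 ± 0.18 (SE, limma adjusted p = 0.0103) in the knockout and by 0.90 ± 0.18 (adjusted p = 6.00e-03) in wild type. Slc2a2, the main glucose transporter of hepatocytes, stood at -0.04 ± 0.11 in the knockout and -0.11 ± 0.11 in wild type. Slc2a4, the insulin-responsive transporter GLUT4, rose by 0.49 ± 0.10 in wild type and stood at -0.22 ± 0.10 in the knockout, at group means of 2.88 to 3.42, near the array medians. Slc2a3, a high-affinity glucose transporter, lay at group means of 2.76 to 2.94 and was not called. Without the arrays with pancreas transcripts, Slc2a1 kept its call in the knockout (0.92) and lost it in wild type (0.75), as did Slc2a4 in wild type (0.57, limma adjusted p = 0.0924).

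Of 12 thioredoxin-system genes, 1 was higher and 0 lower in the knockout, and 1 higher and 2 lower in wild type. The share of all genes called was 8.29% in the knockout and 11.5% in wild type. Glrx, glutaredoxin, rose by 0.58 ± 0.16 (SE) in the knockout and by 1.05 ± 0.16 in wild type. The mitochondrial thioredoxin reductase Txnrd2 fell by 0.41 ± 0.09 in wild type and stood at -0.06 ± 0.09 in the knockout, and the sulfiredoxin Srxn1 fell by 0.42 ± 0.11 in wild type and stood at -0.23 ± 0.11 in the knockout. The cytosolic reductase Txnrd1 stood at -0.28 ± 0.09 in both and passed in the averaged effect (adjusted p = 5.63e-03). Of 6 inflammasome genes, which act downstream of Txnip in some cells, 1 was lower in each genotype, Il1b by 0.76 ± 0.19 in the knockout and Casp1 by 0.58 ± 0.10 in wild type, both at group means of 3.49 or less. Without the arrays with pancreas transcripts, Glrx was called in wild type (1.41) but no longer in the knockout (0.53, limma adjusted p = 0.0918). Txnrd2 in wild type was then at -0.46, Srxn1 in wild type at -0.25 and Txnrd1 in the averaged effect at -0.23, all without a call. Of the inflammasome list, Il1b was then at -0.78 in the knockout and kept its call. Casp1 was at -0.44 in wild type, without a call, and at -0.40 in the averaged effect.

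Insulin and FoxO signalling genes were called higher for 4 of 13 and lower for 2 in the knockout, and for 4 and 3 in wild type. Over all genes, 8.29% were called in the knockout and 11.5% in wild type. Foxo1, a transcription factor restrained by insulin, rose by 1.17 ± 0.13 (SE) in the knockout and by 1.24 ± 0.13 in wild type. Irs1, an insulin receptor substrate, fell by 1.55 ± 0.21 in the knockout and by 0.74 ± 0.21 in wild type. Sesn3, a FoxO target, fell by 0.50 ± 0.12 in the knockout and by 0.58 ± 0.12 in wild type. Pck1, of the same list, went up. It averaged 11.90 in knockout dexamethasone livers against 10.52 with vehicle, and 12.00 against 11.14 in wild type. With those 4 arrays left out, Foxo1 (1.22), Pck1 (1.40) and Irs1 (-1.60) were called in the knockout, and only Foxo1 (1.22) in wild type. The wild-type values without a call included -1.002 for Irs1 (limma adjusted p = 0.195) and -0.47 for Sesn3 (adjusted p = 0.315), and Sesn3 in the knockout was at -0.49 (adjusted p = 0.102). Of all genes, 4.38% were called higher in the knockout and 4.57% in wild type. In a list of 9 glucocorticoid-induced genes, each genotype had 8 that rose. Those with the smallest p in the averaged effect were Fkbp5, Ddit4 (4.88 ± 0.31 in the knockout and 4.48 ± 0.31 in wild type), Sgk1 (3.12 ± 0.22 in the knockout and 3.67 ± 0.22 in wild type) and Zbtb16 (2.06 ± 0.20 in the knockout and 2.75 ± 0.20 in wild type). Arrdc2, at 2.73, lay between Zbtb16 and Sgk1 in the knockout, and at 2.56 it lay below all 4 in wild type. Over all 9 listed genes the median change was 2.32 in the knockout and 2.75 in wild type. Without the arrays with pancreas transcripts the list median was 2.28 in the knockout and 3.07 in wild type, where fewer of the list were called. The beta-arrestins, which desensitise receptors, fell in wild type by 0.57 ± 0.15 for Arrb1 and 0.61 ± 0.14 for Arrb2, and stood in the knockout at -0.43 ± 0.15 for Arrb1 and -0.12 ± 0.14 for Arrb2. Both wild-type calls were lost without the arrays with pancreas transcripts (Arrb1 -0.25, Arrb2 -0.52). Arr3, a visual arrestin, lay at group means of 2.12 to 2.21, near the 20th percentiles.

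**Figure D4:**
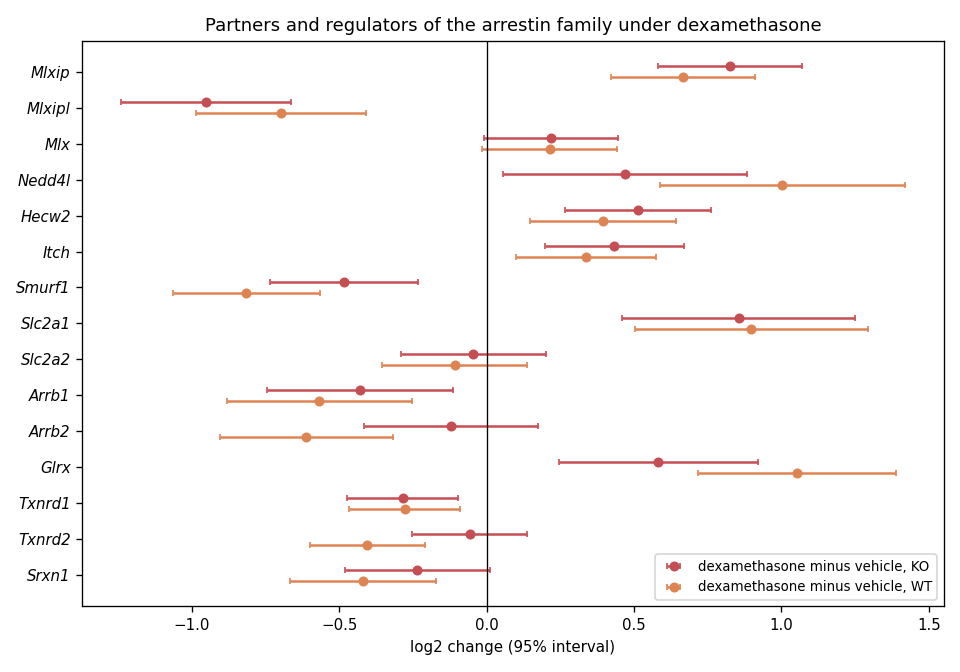
Log2 change under dexamethasone with its 95% interval for transcription factors, ubiquitin ligases, cargo, beta-arrestins and thioredoxin-system genes, in the Hdac6 knockout (KO) and in wild type (WT). Mlxip and Mlxipl lie on opposite sides of 0 in both genotypes, Slc2a1 lies above 0 in both, and Slc2a2 has intervals that include 0.

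The genes whose pattern was most like a member's were found by the root mean square difference of log2 values over the 12 arrays, each gene centred on its own mean. This was done for the 3 members whose group means spanned at least 1. Predicted genes were left out of the search. Nearest to Arrdc2 were Plin4, a lipid droplet coat gene (difference 0.19), Mrap, an accessory protein of melanocortin receptors (0.31), and St3gal5, a ganglioside sialyltransferase (0.33). Plin4 averaged 6.20 in knockout dexamethasone livers against 3.61 with vehicle, and 6.22 against 3.55 in wild type. Nearest to Arrdc4 were Anks4b (0.19), Elk3, an ETS transcription factor (0.19), and Nr2f2, a nuclear receptor (0.20). Arrdc3 had no close neighbour by this measure. The measure counts the size of a change, and Arrdc3 was known for the largest decrease of all genes. A large distance is therefore partly set by how the gene was chosen. The nearest to Arrdc3 were Osgin1 (0.51), Nr1d1, a circadian repressor (0.72), and Fam13a (0.94). The differences for Arrdc2 and Arrdc4 are near the members' own residual SD of 0.28 and 0.24, and those for Arrdc3 exceed its 0.39.

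**Figure D5:**
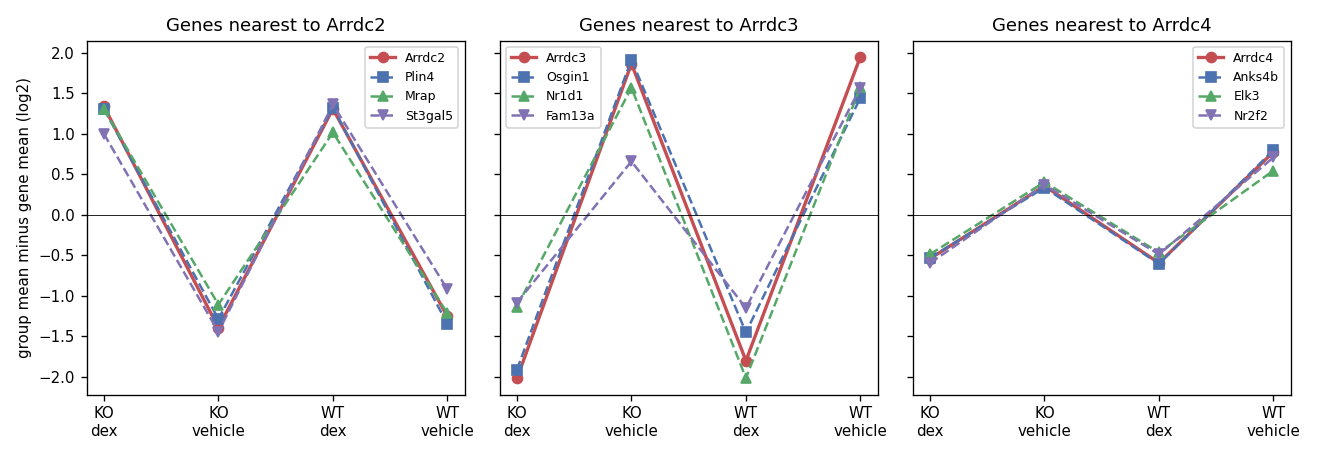
Group means of Arrdc2, Arrdc3 and Arrdc4 (red) and of the 3 genes nearest to each, on the log2 scale and centred on the mean of the 4 groups. Groups are Hdac6 knockout (KO) and wild type (WT) with dexamethasone (dex) or vehicle, and lines only join the points of a gene. Plin4 nearly coincides with Arrdc2, and Fam13a differs most from Arrdc3 in the knockout vehicle group.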

How the data were processed

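The authors deposited 1 table of log2 intensities for 34760 probe sets on 12 arrays, made in R 2.10.0 using affy, as the submitters' processing notes list. Background correction, normalisation and summarisation are not given in the sources used here. Sorted values of single arrays lay within 0.215 of the mean over arrays, so the distributions were nearly equal. Of the probe sets, 21640 carried 1 symbol in the platform annotation. The probe set with the highest mean stood for a gene, and genes above the 20th percentile of an array in at least 3 arrays were kept.

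All 12 arrays entered 1 model of 4 group means (limma 3.58.1, R 4.3.3, 8 residual and 5.07 prior degrees of freedom), and p-values were adjusted by Benjamini-Hochberg over 17904 genes, with a threshold of 0.05. For arrays, their number limits the precision. In simulated data for the wild-type comparison with 17904 genes, 91.5% of 200 genes changed by 1 were recovered, and 34.2% of those changed by 0.5. These shares are not specific to genes that vary as much as Arrdc2, Arrdc3, Arrdc4 and Txnip. Their residual SD was 0.24 to 0.39, against a median of 0.143.

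The members, gene lists and tests were chosen with earlier results of these data known. List genes were named by the smallest p in the averaged dexamethasone effect, up to 4 a list. Alternatives concerned filters, scaling, probe sets, variance moderation, replicate block and arrays left out. The list counts without the arrays with pancreas transcripts were added after seeing the data. Same-numbered animals of different groups did not deviate together (median r of -7.91e-05 over 18 pairs, 3 above 0.1), so numbers were not taken as pairs.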

Additional observations from a re-analysis of the deposited data

How the results depend on the processing

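Over the alternatives, 708 of 713 member values were counted as unchanged. Apart from the dexamethasone values of Arrdc3, these kept their call or stayed without one. The dexamethasone values of Arrdc3 carry no call. They counted as unchanged if they kept their sign and moved by less than its residual SD of 0.39. Of 248 dexamethasone values of Arrdc2, Arrdc3, Arrdc4 and Txnip, 0 changed sign, and those of Arrdc3 are again only a description. Of all values 29 changed sign, none of them past the threshold. The exceptions were for Txnip. Its averaged change was -0.48 and no longer past the threshold without the arrays with pancreas transcripts, and ran from -0.60 to -0.37 with single arrays left out. Its knockout change ran from -0.85 to -0.39. The cause was not tested, beyond there being fewer arrays. With the replicate number as a block, no member's call changed (Txnip -0.49, adjusted p = 0.0252), and genes called for the averaged knockout effect numbered 29, against 9. Of same-numbered pairs, 3 of 18 correlated above 0.1, as did 11 of 36 other pairs.

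Counts over all genes moved more. Without the arrays with pancreas transcripts 559 genes were called for dexamethasone in wild type against 2064, 1695 for the averaged dexamethasone effect against 3085, 5 for the knockout under vehicle against 18, 1 under dexamethasone against 5, 3 for the averaged knockout effect and 1 for the interaction. The knockout comparison under dexamethasone gave 3 genes with no filter, with the block or with its own groups only, and under vehicle 9 with its own groups only. Robust moderation with a trend gave 14 for the averaged knockout effect. With single arrays left out, counts ran from 5 to 28 for the knockout under vehicle, 1 to 37 under dexamethasone, 5 to 29 averaged and 0 to 3 for the interaction. Centring arrays on their medians put 29.8% of wild-type calls higher, against 39.7%.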
